A study of Sus scrofa with 6 samples.

Results

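The genes described here encode the classical guidance ligands and their receptors: semaphorins with plexins and neuropilins, ephrins with Eph receptors, slits with robos, and netrins with the UNC5 receptors. They were taken from the mRNA table by symbol, as every gene named SEMA, PLXN, EFNA or EFNB, every EPHA and EPHB gene with a number, NRP1, NRP2, SLIT1 to SLIT3, ROBO1 to ROBO3, NTN1, NTN4, UNC5A to UNC5D and DCC. This gave 49 of the 14579 mRNAs. The symbol table holds 17 more such names, among them DCC, EFNB1, PLXNB2 and ROBO3, which were not analysed here, and 4698 mRNAs carried no symbol and could not be searched.

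RNA of lung tissue was sequenced from 6 female hybrid piglets with a Tibetan sire and a Meishan dam, 1 library per piglet. The RNA came from a frozen part of the sampled tissue, and the region of the lung is not stated. The prenatal samples, called the fetal group in the study, were 3 piglets taken from 3 sows on the final day before birth. The neonatal samples were 3 piglets of 3 other sows, taken 2 days after birth. The sources used here name no experimental treatment or genetic change, and the pigs were killed by exsanguination after a ketamine injection. The study mentions both caesarean and parturition without assigning them to a group, so the route of delivery may differ. The groups also differ in age, in birth itself and in their dams, and these cannot be told apart.

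Guidance molecules were first known for steering axons, and the same ligands and receptors direct blood vessels, epithelial branches, nerves and immune cells in the lung. Semaphorins bind plexins, and the secreted class 3 members mostly need a neuropilin as co-receptor. Ephrins are tethered to the cell surface and bind the Eph receptor tyrosine kinases of neighbouring cells, slits are secreted ligands of the robos, and netrins bind DCC and the UNC5 receptors.

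Levels are given in FPKM, fragments scaled to transcript length and to the mapped reads of the library, so that genes of different length can be compared. Differences are neonatal minus prenatal on the log2(FPKM + 1) scale, where the change of genes at low FPKM comes out too small. They were tested in limma with Benjamini-Hochberg adjustment over all mRNAs, and an adjusted p of 0.05 or less is called past the threshold. The tables hold no read counts, so the depth behind a value is unknown and the spread between 3 piglets was the only error. Markers of lung epithelium were abundant in both groups, with a mean SFTPC level of 3508 and 6373 FPKM and a mean AGER level of 583 and 605 FPKM in the prenatal and neonatal group. In whole tissue, fewer cells of a type and less RNA per cell cannot be told apart. The summed FPKM of all mRNAs lay between 339491 and 471220 in the prenatal and between 491548 and 777982 in the neonatal libraries. Over all mRNAs the median difference was 0.13, which became -0.0090 after median-of-ratios scaling and -0.04 after quantile normalization, so that small differences are read against this shift.

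In unscaled FPKM, the guidance genes summed to much the same level before and after birth, while a few members changed places. The 49 genes summed to 480, 452 and 488 FPKM in Prenatal1, Prenatal2 and Prenatal3, and to 502, 496 and 479 FPKM in Neonatal1, Neonatal2 and Neonatal3. The groups overlapped, since Neonatal3 lay below Prenatal1 and Prenatal3. The sum over all mRNAs did not overlap, at 339491 to 471220 FPKM before and 491548 to 777982 FPKM after birth. The guidance sums above were not scaled to it. As a share of it, the guidance genes were lower in every neonatal library than in every prenatal library, by little between Prenatal3 and Neonatal1. The mean over the 6 samples was above 1 FPKM for 44 members and above 10 FPKM for 14. NRP1 and EFNA1 led in both groups, with prenatal means of 106 and 65.4 FPKM, higher than those of 96.8% and 95.1% of all mRNAs.

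Past the threshold were 5 members, SEMA7A, ROBO1, PLXNC1, EPHB2 and SEMA3C, all higher in the neonatal group, and 0 members were lower. These 5 make 10.2% of the members, against 6.87% of all mRNAs, or 5.41% of all mRNAs when those higher in the neonatal group are counted alone and 1.45% when those lower are. After median-of-ratios scaling 2 members were higher and 1 lower, and after quantile normalization 3 and 2, while the share of higher genes among the calls over all mRNAs went from 78.8% to 66.0% and 57.9%. With 1 sample left out, 3 members passed without Neonatal1, 2 without Neonatal2 and 1, SEMA7A, without each of the other samples. Prenatal and neonatal values were fully separate for 16 members (32.7%), against 30.5% of all mRNAs. The neonatal values lay above in 10 members and below in 6, against 20.9% and 9.64% of all mRNAs. The 10 include SEMA4F, which met the minimum for the table through its neonatal values alone. An unadjusted p under 0.05 was reached by 14 members (28.6%), against 24.2% of all mRNAs. These shares of the members are near the background. The median difference of the 49 genes was 0.10, against 0.13 over all mRNAs. Of these genes 29 had a positive and 20 a negative difference, near the background of 8729 and 5850 over all mRNAs. The 29 and 20 became 21 and 28 after either scaling, and 28 and 18 among members above 0.5 FPKM in at least 2 samples.

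**Figure D1:**
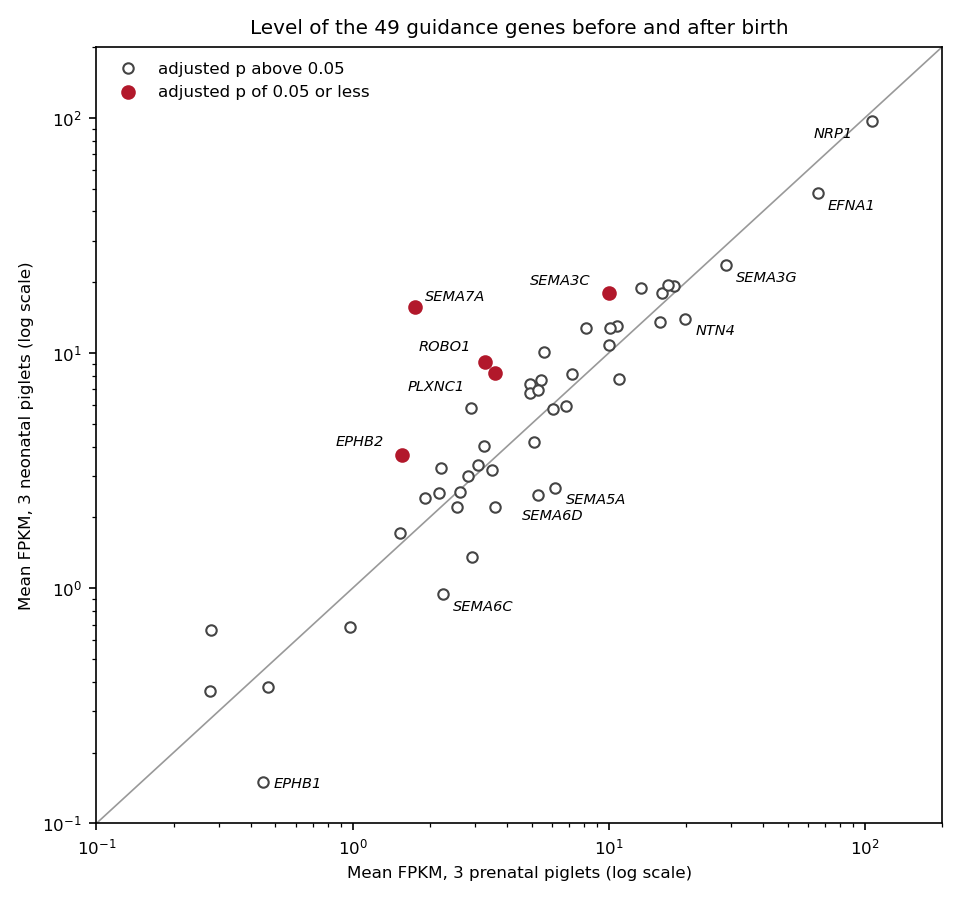
Mean FPKM of the 49 guidance genes in 3 neonatal piglets (vertical log axis) against that in 3 prenatal piglets (horizontal log axis), with a line where both are equal. Most genes lie near the line, with NRP1 at the upper end, and the 5 filled red points (adjusted p of 0.05 or less) lie above it, SEMA7A farthest, at 1.75 and 15.7 FPKM.

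**Figure D2:**
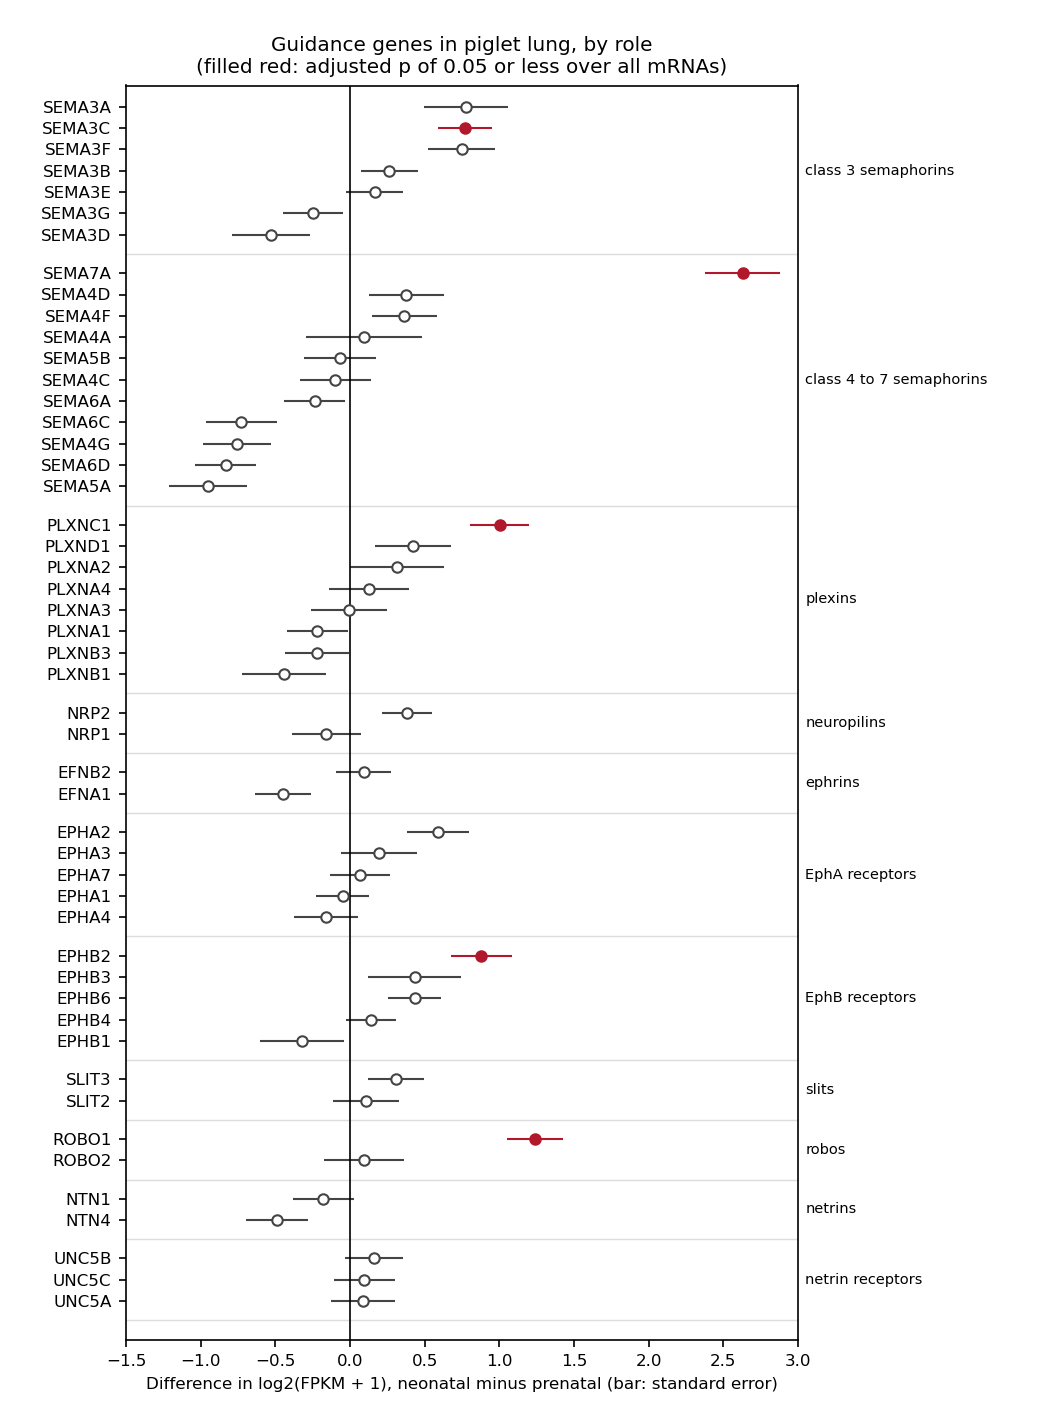
Difference of each guidance gene on the log2(FPKM + 1) scale, neonatal minus prenatal, with its limma standard error, grouped by role. The 5 filled red genes are past the threshold, and SEMA7A stands at 2.63, while the other members lie between -0.95 and 1.24.

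SEMA7A, a membrane-anchored semaphorin best known from immune cells, and PLXNC1, its plexin receptor, both rose after birth. The study had already reported SEMA7A as significantly higher in these neonatal lungs, among immune response genes, and stated a check by qRT-PCR. SEMA7A is the only guidance gene in the primer list of the study, and its qRT-PCR primers are shown because they bound the stretch of transcript that was amplified there. Their place in the genome is not given in the sources used here, and no capitals are set, since no base is singled out.
SEMA7A forward primer: aatctcacggacctccagta
SEMA7A reverse primer: ccatcctcacgcatcagc
SEMA7A was measured at 2.70, 1.28 and 1.26 FPKM before and 12.8, 17.2 and 16.9 FPKM after birth. Every neonatal value lay far above every prenatal value, and the neonatal mean was 8.96 times the prenatal mean. The difference was 2.63 (standard error 0.25, limma adjusted p = 0.00337). Leaving out each sample in turn gave adjusted p values between 0.0127 and 0.0320, and the call held each time.

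PLXNC1 was measured at 3.10, 3.70 and 4.01 FPKM before and at 9.10, 6.74 and 8.92 FPKM after birth. The groups did not overlap, and the neonatal mean was 2.29 times the prenatal mean, with a difference of 1.00 (standard error 0.20, limma adjusted p = 0.0277). The call was lost after median-of-ratios scaling (difference 0.85, adjusted p = 0.0537). It was also lost when any single sample was left out, with differences between 0.92 and 1.13 and adjusted p values between 0.0615 and 0.115. On the log2 scale the ratio of SEMA7A to PLXNC1 was -0.20, -1.53 and -1.68 in the prenatal and 0.50, 1.35 and 0.93 in the neonatal samples, so that the receptor was the more abundant of the pair before birth in each sample and the ligand after birth in each sample. The mean ratio differed by 2.06 (exact test over all permutations of the samples, two-sided, p = 0.1, below which 3 against 3 cannot go, and adjusted p = 0.1 over 6 gene pairs chosen after their values were seen). The integrin chains ITGA1 and ITGB1, which form another SEMA7A receptor, did not pass the threshold, with differences of 0.40 (adjusted p = 0.243) and 0.09 (adjusted p = 0.834).

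Some leukocyte genes rose as well. Of 8 neutrophil markers 7 were measured, and their summed level was 137 to 242 FPKM in the prenatal and 861 to 1340 FPKM in the neonatal samples, with S100A8, S100A9 and S100A12 past the threshold upward and LCN2 downward. The other 3 did not pass. CSF3R and MMP9 were higher in all neonatal samples, with means of 1.60 and 1.18 FPKM before and 5.15 and 3.86 FPKM after birth. ELANE, a protease gene, had a mean of 0.637 FPKM before birth and was listed at 0 in the neonatal samples. Of 9 macrophage markers 7 were measured, all with positive differences and none past the threshold, and their sum was 403 to 940 FPKM before and 675 to 1592 FPKM after birth. Their part in the rise of SEMA7A and PLXNC1 was not tested.

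Of the other 10 membrane-bound semaphorins 0 passed the threshold. Differences were negative for 7 and positive for 3 of them, against 5850 and 8729 over all mRNAs. These classes 4 to 7 are anchored in the membrane and act on neighbouring cells, many of them through plexins of the A and B type. Without SEMA7A, they summed to 28.7, 31.9 and 39.1 FPKM in the prenatal samples and to 25.6, 24.3 and 25.9 FPKM in the neonatal samples, with all neonatal sums below all prenatal sums. This sum leaves out the member that rose, and with SEMA7A the groups overlapped, so the separation adds no support. Classes 5 and 6 were not planned as a group of their own. Their 5 members all had a negative difference, with a median of -0.73, while class 4 had 3 positive and 2 negative differences. The 5 signs stayed negative after either scaling, but both scalings lowered the median over all mRNAs, so this adds no support. SEMA5B was above 0.5 FPKM, the minimum for the table, in Prenatal1 alone (0.837 FPKM), so its sign adds no support either. None of them passed the threshold, and SEMA5B, the lowest of them, turned slightly positive without Prenatal1 (0.11) or without Neonatal2 (0.0043).

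SEMA6D, a transmembrane ligand of PLXNA1, was measured at 4.20, 5.09 and 6.63 FPKM before and 2.57, 2.47 and 2.46 FPKM after birth. The neonatal values were close together and all lower, and the prenatal mean was 2.12 times the neonatal mean. The difference was -0.83 (standard error 0.20, limma adjusted p = 0.0557). It passed the threshold in 3 of the 8 alternatives with all samples, at 0.0433 after median-of-ratios scaling, 0.0402 after quantile normalization and 0.0436 among mRNAs with FPKM above 1 in at least 3 samples. SEMA5A, a transmembrane semaphorin with thrombospondin repeats, was measured at 5.05, 4.98 and 8.52 FPKM before and at 3.46, 2.60 and 1.97 FPKM after birth. The groups did not overlap, although Prenatal3 stood well above the other prenatal samples, and the difference was -0.95 (standard error 0.26, limma adjusted p = 0.0779). SEMA6C was measured at 1.54, 2.35 and 2.85 FPKM and then at 0.903, 0.672 and 1.26 FPKM, a difference of -0.73 (limma adjusted p = 0.118). SEMA4G was measured at 2.86, 3.12 and 2.78 FPKM and then at 1.94, 1.30 and 0.835 FPKM, a difference of -0.76 (limma adjusted p = 0.0976). Neither gene had overlapping groups, and neither passed in any alternative run. SEMA6A, another ligand of the A plexins, had a difference of -0.24 (adjusted p = 0.517) with overlapping groups.

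The remaining class 4 genes did not pass the threshold. SEMA4D, whose receptor is PLXNB1 and which T cells also carry, was measured at 3.41, 5.44 and 7.08 FPKM and then at 6.35, 7.91 and 6.70 FPKM (difference 0.38, adjusted p = 0.401), with overlapping groups. PLXNB1 itself had 12.8, 12.9 and 7.20 FPKM before and 8.03, 9.58 and 5.60 FPKM after birth (difference -0.44, adjusted p = 0.379), and Prenatal3 fell among the neonatal values. SEMA4A and SEMA4C had differences of 0.09 and -0.10, and SEMA4F, at 0.281 FPKM before and 0.661 FPKM after birth on average, one of 0.36 (adjusted p = 0.345) with no overlap. SEMA4F was above 0.5 FPKM, the minimum for the table, in neonatal samples only, so its lack of overlap adds no support.

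The make-up of classes 4 to 7 differed between the groups. SEMA7A made up 5.20% ± 2.99 (SD, n = 3) of their summed FPKM in the prenatal group, which placed it ninth of 11, and 38.1% ± 4.21 (SD, n = 3) in the neonatal group, where it was the most abundant. SEMA5A went from 17.4% ± 3.23, the highest share before birth, to 6.62% ± 2.21, and SEMA6D from 15.1% ± 1.53 to 6.13% ± 0.495 (SD, n = 3 each). The sum of all 11 members was 31.4 to 40.4 FPKM before and 38.5 to 42.8 FPKM after birth, so that the groups overlapped. Shares within a sample are not changed by a common factor per sample, but a rise of 1 member lowers the shares of the others.

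**Figure D3:**
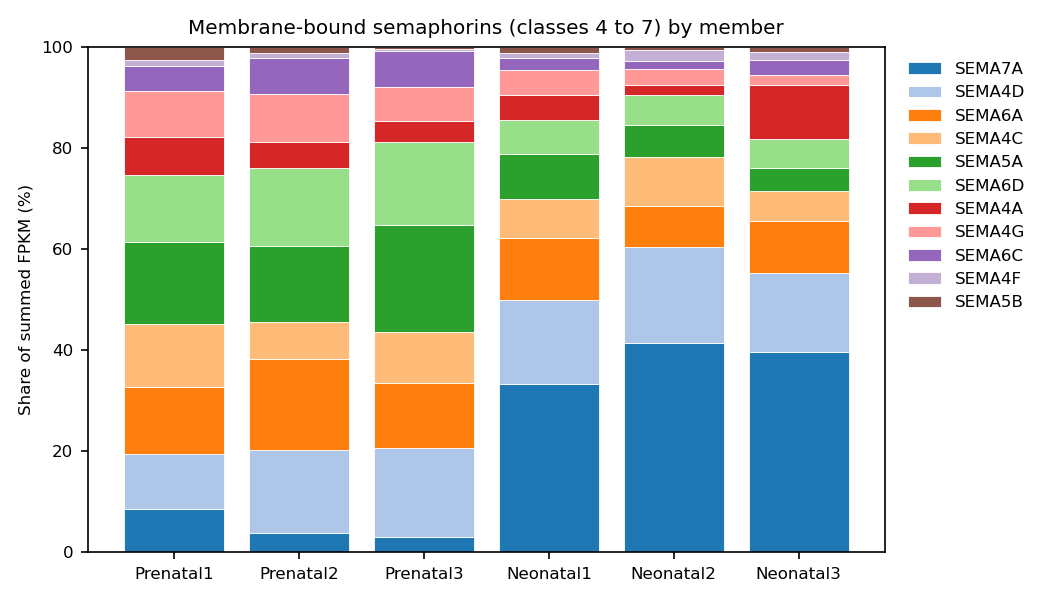
Share of each membrane-bound semaphorin (classes 4 to 7) in their summed FPKM, in percent, as stacked bars for the 3 prenatal and 3 neonatal piglets. The SEMA7A segment at the bottom is below 10% in each prenatal bar and above 30% in each neonatal bar, while the SEMA5A and SEMA6D segments are narrower after birth.

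Among the secreted class 3 semaphorins, SEMA3C rose, and the other 6 did not pass the threshold. SEMA3C, a ligand of both neuropilins and of PLXND1 that is known from the great vessels of the heart, was measured at 10.7, 9.18 and 10.2 FPKM before and 15.2, 20.6 and 18.2 FPKM after birth. The groups did not overlap, and the neonatal mean was 1.79 times the prenatal mean. The difference was 0.77 (standard error 0.18, limma adjusted p = 0.0483), just inside the threshold. It lost its call after median-of-ratios scaling (0.0622), after quantile normalization (0.0613), without a variance trend (0.0593) and with any sample other than Neonatal1 left out, where the adjusted p reached 0.173. SEMA3F, an NRP2 ligand that repels vessels, was measured at 5.97, 4.35 and 6.49 FPKM and then at 9.04, 8.59 and 12.8 FPKM, without overlap (difference 0.75, standard error 0.23, limma adjusted p = 0.0974). SEMA3A, the prototype NRP1 ligand, was measured at 2.27, 3.54 and 2.88 FPKM and then at 6.91, 3.50 and 7.14 FPKM. Neonatal2 fell within the prenatal range, and the difference of 0.78 (standard error 0.28) had an adjusted p of 0.150.

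SEMA3G, an NRP2 ligand made by endothelium, was the most abundant class 3 member, at 27.9, 23.1 and 34.9 FPKM before and 22.3, 26.2 and 22.6 FPKM after birth (difference -0.25, adjusted p = 0.489). SEMA3E, which binds PLXND1 without a neuropilin, had 16.0, 18.3 and 16.8 FPKM and then 15.4, 20.8 and 22.1 FPKM (difference 0.17, adjusted p = 0.632), and its sign turned after either scaling. Both genes had overlapping groups. SEMA3D was measured at 4.20, 2.69 and 3.86 FPKM and then at 1.33, 2.35 and 2.98 FPKM (difference -0.53, adjusted p = 0.266), and SEMA3B had a difference of 0.26 (adjusted p = 0.435). The class as a whole summed to 76.6, 71.0 and 88.1 FPKM before and 81.9, 94.9 and 100.2 FPKM after birth, with Neonatal1 inside the prenatal range.

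In the RefSeq annotation of Sscrofa11.1, a later build than that of the table, SEMA3A lies directly between SEMA3D and SEMA3E with no protein-coding gene separating them, and SEMA3C follows beyond SEMA3E with 3 genes between. Their differences were 0.78 for SEMA3A, -0.53 for SEMA3D, 0.17 for SEMA3E and 0.77 for SEMA3C. The log2 ratio of SEMA3A to SEMA3D was -0.89, 0.40 and -0.42 in the prenatal and 2.38, 0.58 and 1.26 in the neonatal samples, a shift of 1.71 without overlap (p = 0.1 and adjusted p = 0.1 in the same exact test).

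The semaphorin receptors other than PLXNC1 did not pass the threshold. NRP1, which also serves as co-receptor for VEGF, had the highest level of all members, at 113, 104 and 101 FPKM before and 123, 89.7 and 77.2 FPKM after birth. The neonatal values reached both above and below the prenatal ones (difference -0.16, adjusted p = 0.704). NRP2, known from veins and lymphatic vessels, was measured at 5.22, 4.80 and 4.80 FPKM and then at 7.10, 6.32 and 6.79 FPKM, without overlap but short of the threshold (difference 0.38, standard error 0.17, limma adjusted p = 0.211). The log2 ratio of SEMA3C to NRP1 was -3.40 before and -2.41 after birth in the mean, a shift of 0.99 with non-overlapping groups (p = 0.1 in the same exact test). PLXND1, the receptor of SEMA3E found mainly on endothelium, was the most abundant plexin over all 6 samples, at 13.1, 14.4 and 12.7 FPKM before and 24.8, 19.4 and 12.6 FPKM after birth. Neonatal3 stood at the prenatal level, and the difference was 0.42 (adjusted p = 0.346). PLXNA1 had a mean of 15.8 ± 1.81 FPKM before and 13.6 ± 2.85 FPKM after birth (SD, n = 3), a difference of -0.22 (limma adjusted p = 0.544), and PLXNA2, PLXNA3, PLXNA4 and PLXNB3 had differences between -0.22 and 0.31. The sign for PLXNA2 rested on Neonatal1, at 5.42 FPKM, since without it the difference was -0.03.

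ROBO1 rose, and neither its relative ROBO2 nor the slits that both bind passed the threshold. Robos are receptors of the immunoglobulin family through which slits repel growing axons and moving cells. ROBO1 was measured at 3.29, 3.39 and 3.18 FPKM before and 9.46, 7.54 and 10.6 FPKM after birth. The prenatal values were nearly equal and all neonatal values lay above them, with a neonatal mean of 2.80 times the prenatal mean. The difference was 1.24 (standard error 0.19, limma adjusted p = 0.0123). With 1 sample left out it passed only without Neonatal1 or Neonatal2, and the adjusted p was at most 0.0667 otherwise.

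ROBO2 was measured at 1.97, 1.62 and 0.986 FPKM before and at 2.14, 0.986 and 2.02 FPKM after birth, with full overlap (difference 0.10, adjusted p = 0.853). The log2 ratio of ROBO1 to ROBO2 was 0.74, 1.07 and 1.69 and then 2.15, 2.93 and 2.38, a shift of 1.32 without overlap (p = 0.1 and adjusted p = 0.1 in the same exact test). In the RefSeq annotation the genes are direct neighbours. ROBO4, the endothelial member taken from the list of partner genes, had a difference of 0.12 (adjusted p = 0.701). Of the ligands, SLIT2 was measured at 12.2, 8.06 and 9.73 FPKM and then at 11.7, 12.1 and 8.52 FPKM (difference 0.11, adjusted p = 0.799), and its sign turned after either scaling. SLIT3 was measured at 10.5, 8.64 and 11.3 FPKM and then at 14.2, 13.4 and 10.8 FPKM (difference 0.31, adjusted p = 0.358). The groups overlapped for both slits.

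**Figure D4:**
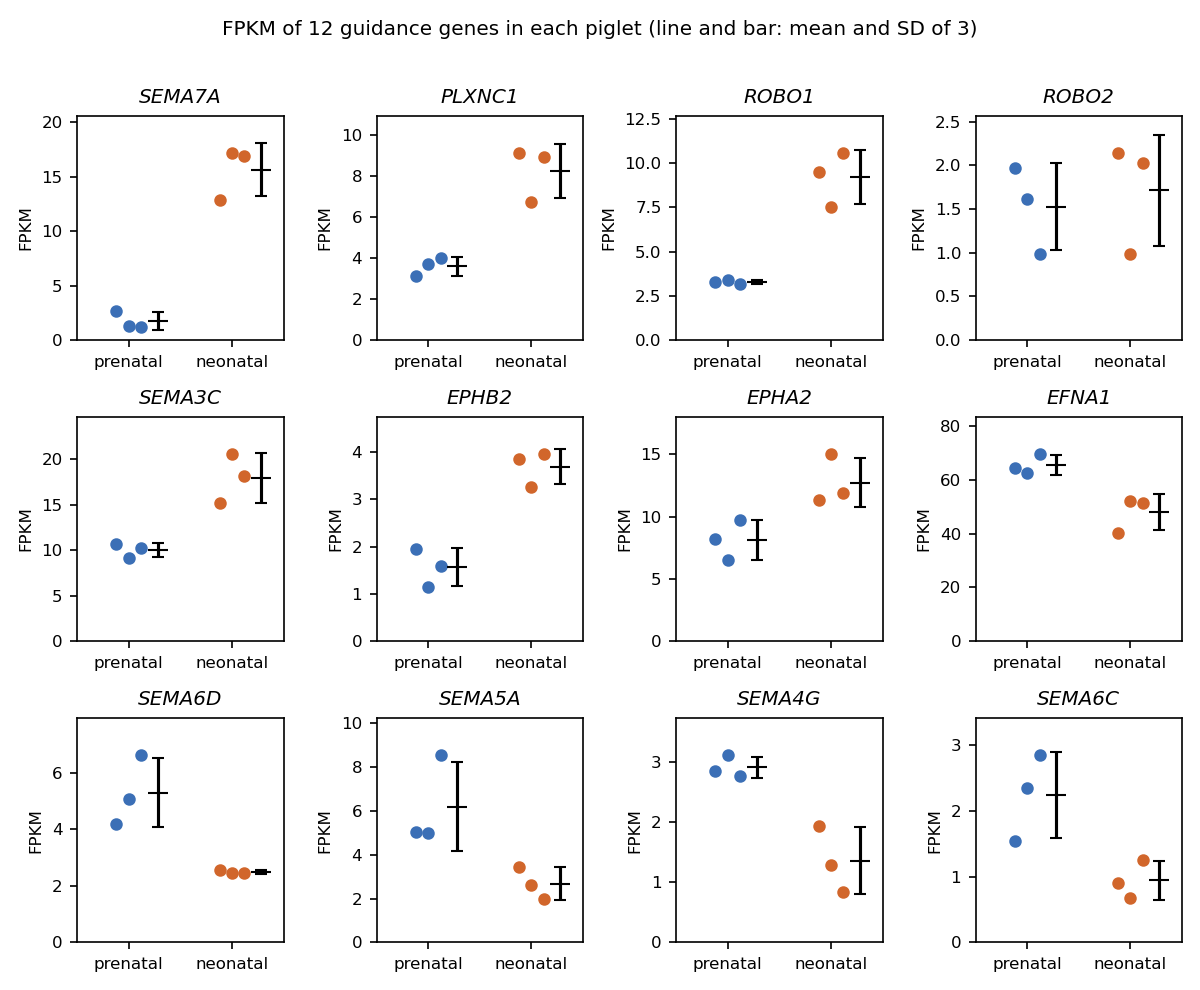
FPKM of 12 guidance genes in each of the 3 prenatal (blue) and 3 neonatal (orange) piglets, with mean and SD, each panel with its own axis from 0. SEMA7A, PLXNC1, ROBO1, SEMA3C, EPHB2 and EPHA2 lie higher in all neonatal piglets, ROBO2 overlaps, and EFNA1, SEMA6D, SEMA5A, SEMA4G and SEMA6C lie lower in all neonatal piglets.

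Among the Eph receptors, EPHB2 rose. It is a receptor tyrosine kinase for the ephrin-B ligands and was measured at 1.95, 1.15 and 1.60 FPKM before and 3.85, 3.27 and 3.95 FPKM after birth. All neonatal values were higher, at 2.36 times the prenatal mean, with a difference of 0.88 (standard error 0.20, limma adjusted p = 0.0469). The call was lost with a pseudocount of 0.1 (0.0551), after median-of-ratios scaling (0.0661) or quantile normalization (0.0631), and with any sample left out (0.0844 to 0.173), while the difference itself lay between 0.76 and 1.21 in these settings. EPHB4, the receptor that marks veins, was the most abundant EphB gene, at 16.6, 15.1 and 16.7 FPKM before and 17.0, 20.2 and 16.5 FPKM after birth (difference 0.14, adjusted p = 0.644). The log2 ratio of EPHB2 to EPHB4 shifted by 1.12 without overlap (p = 0.1 in the same exact test). EFNB2, the arterial ligand of both, was measured at 19.5, 16.9 and 17.3 FPKM and then at 16.0, 20.5 and 21.2 FPKM (difference 0.09, adjusted p = 0.789). Its groups overlapped, and the signs of EFNB2 and EPHB4 turned after either scaling.

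EPHB6, a relative without kinase activity, was measured at 6.22, 5.09 and 5.02 FPKM and then at 7.0, 7.68 and 8.37 FPKM, without overlap (difference 0.43, adjusted p = 0.191). EPHB3 had a like difference of 0.43 but wide neonatal values, from 3.96 to 9.73 FPKM (adjusted p = 0.431). EPHB1 was near the lower limit of the table, at 0.361, 0.108 and 0.875 FPKM before birth and at 0.450 FPKM in Neonatal1, and it was listed at 0 in Neonatal2 and Neonatal3.

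EFNA1 and EPHA2, a ligand and receptor pair of epithelium and endothelium, had differences of opposite sign, neither past the threshold. EFNA1 was measured at 64.3, 62.4 and 69.5 FPKM before and 40.2, 52.1 and 51.6 FPKM after birth, all neonatal values lower (difference -0.45, standard error 0.19, limma adjusted p = 0.195). It passed the threshold after quantile normalization alone, at -0.80 with an adjusted p of 0.0238. EPHA2 was measured at 8.24, 6.51 and 9.73 FPKM and then at 11.3, 15.0 and 11.9 FPKM, all neonatal values higher (difference 0.59, standard error 0.21, limma adjusted p = 0.139). The log2 ratio of EPHA2 to EFNA1, which a common factor per sample leaves as it is, was -2.96, -3.26 and -2.84 before and -1.83, -1.79 and -2.12 after birth. It shifted by 1.11 without overlap (p = 0.1 and adjusted p = 0.1 in the same exact test), and the ligand remained the more abundant of the pair in all 6 samples. EPHA1, EPHA3, EPHA4 and EPHA7 had overlapping groups, with differences between -0.16 and 0.20. Of the 10 Eph receptors, 7 had a positive and 3 a negative difference, against 8729 and 5850 over all mRNAs. EPHB1 was above 0.5 FPKM, the minimum for the table, in Prenatal3 alone, so its sign adds no support. Among mRNAs with FPKM above 0.5 in at least 2 samples the receptors had 7 and 2. After either scaling the receptors had 5 and 5.

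None of the netrins and their receptors passed the threshold. NTN4, a netrin of basement membranes that binds laminin, was measured at 18.9, 22.5 and 18.0 FPKM before and 12.4, 11.8 and 17.8 FPKM after birth. The groups did not overlap, but Neonatal3 came close to Prenatal3, and the difference of -0.49 (standard error 0.21) had a limma adjusted p of 0.207. NTN1, the prototype of the family, was measured at 7.18, 6.17 and 7.09 FPKM and then at 4.84, 7.56 and 5.54 FPKM (difference -0.18, adjusted p = 0.627). UNC5B, the vascular netrin receptor and the most abundant of the 3 measured, had 7.34, 6.02 and 8.16 FPKM before and 7.34, 9.57 and 7.54 FPKM after birth (difference 0.16, adjusted p = 0.643). UNC5C and UNC5A had differences of 0.10 and 0.09, and UNC5A stayed below 1 FPKM in every sample. UNC5A was above 0.5 FPKM, the minimum for the table, in Neonatal2 alone (0.619 FPKM), so its sign adds no support.

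A list of 69 partner and effector genes of these pathways, of which 48 were measured, described what lies beside and downstream of the receptors. Past the threshold were 5 of the 48 (10.4%, against 6.87% of all mRNAs), all higher in the neonatal group, and the median difference of the 48 was 0.12, against 0.13 over all mRNAs. CFL1, the actin-severing protein cofilin, went from 87.7, 73.9 and 103 FPKM to 207, 218 and 316 FPKM (difference 1.46, standard error 0.25, limma adjusted p = 0.0194). LIMK1, the kinase that inactivates cofilin, went from 2.69, 2.36 and 2.43 FPKM to 4.59, 6.89 and 5.57 FPKM (difference 0.92, limma adjusted p = 0.0369). The others were MICAL1, an enzyme that oxidizes actin below plexins (difference 0.98), FES, a tyrosine kinase reported at plexin A receptors (0.93), and ABLIM3, an actin-binding protein (0.87), with adjusted p values between 0.0362 and 0.0382. None of the 5 had overlapping groups. The count stayed at 5 without Neonatal1 and was 0 without each of the other samples, and it was 3 after median-of-ratios scaling. LIMK2, ROCK1, ROCK2 and the RhoA exchange factors ARHGEF11 and ARHGEF12 did not pass, with differences between -0.33 and 0.18.

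Of 12 endothelial markers 9 were measured and none passed, with a median difference of -0.10 and sums of 565 to 699 FPKM before and 725 to 990 FPKM after birth, where CLDN5 alone went from 229 to 537 FPKM on average. Of 9 smooth muscle and pericyte markers ACTA2, CNN1 and TAGLN rose and the other 6 did not pass. Of these 6, MYH11 (difference 0.74, without overlap), CSPG4 (0.27), PDGFRB (0.23) and DES (0.12) were positive. RGS5 (-0.76, without overlap) and NOTCH3 (-0.32) were negative. The median difference of this list was 0.27, and its sum, most of it ACTA2 and TAGLN, was 388 to 615 FPKM before and 1093 to 1758 FPKM after birth. Of 6 lymphatic markers 5 were measured, and LYVE1 fell (difference -1.31, limma adjusted p = 0.0349). MMRN1 (-0.66), FLT4 (-0.39) and PROX1 (-0.21) were negative and PDPN (0.38) was positive, none of them past the threshold. All 9 measured markers of dividing cells rose, from a sum of 12.8 to 14.3 FPKM to one of 98.4 to 116 FPKM. Of 10 nerve and Schwann cell markers 3 were measured, at sums of 2.37 to 4.26 FPKM and 2.20 to 3.04 FPKM. Of 6 measured mesenchymal markers MEOX2 rose, and no marker passed among the 4 of type I cells, 7 of type II cells, 3 of ciliated cells, 8 of lymphocytes, 4 of erythroid cells and 2 of mesothelium that were measured. The part of any of these in the differences of the guidance genes was not tested.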

How the data were processed

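RNA-seq libraries of 6 lungs were compared, 3 prenatal and 3 neonatal. The authors filtered the reads, mapped them to Sscrofa10.2 with TopHat2 2.1.0 and computed FPKM per gene with Cufflinks 2.2.1, and the deposited mRNA table holds genes with FPKM above 0.5 in at least 1 sample. The deposited lncRNA table was not used here. No value column was left unmatched (0). Read counts were not analysed here, so precision rests on the 3 animals of a group.

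Symbols came from an Ensembl table for 9478 mRNAs, among them all 49 guidance genes, and from a supplementary table of the study for 403 more. Cuffdiff, which the authors used, needs aligned reads. Therefore limma 3.58.1 under R 4.3.3 was applied to log2(FPKM + 1) with a variance trend over all 14579 mRNAs. Tested on simulated tables, the fit recovered 0, 157 and 193 of 200 genes changed by 1, 2 and 4 on the log2 scale, with 0, 7 and 8 unchanged genes called. Only these 200 genes, drawn from those with a mean above 1 on that scale, were changed. In the data 1001 mRNAs were called, and differences below 1 passed, such as 0.88 for EPHB2. The adjustment is thus less strict in the data, and these recoveries do not describe it. Ratios of gene pairs were compared by exact permutation tests in scipy 1.17.1 (Python 3.11.15).

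Members and gene lists were chosen with earlier results of these data known. By rule, values per sample were given for members past the threshold, their partners, the most abundant member of each role and members without overlap whose log2 difference was at least 1 in size. Values per sample of EPHB1, EPHB6, NTN1, PLXNB1, ROBO2, SEMA3A, SEMA3D, SEMA3E, SEMA3F, SEMA4D, SEMA4G, SEMA5A, SEMA6C and SEMA6D, and the gene pairs, were added after their values were seen. Alternatives were pseudocounts of 0.5 and 0.1, filters of FPKM above 0.5 in 2 samples or above 1 in 3 samples, median-of-ratios scaling, quantile normalization, the replicate number as block, a fit with constant prior variance, and leaving out each sample. Lists of type I, type II, ciliated, mesenchymal, lymphocyte, erythroid and mesothelial markers were also measured.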

Additional observations from a re-analysis of the deposited data

How the results depend on the processing

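The 5 guidance genes past the threshold became 2 after median-of-ratios scaling, 3 after quantile normalization and 1, SEMA7A, with the replicate number as a block, and between 1 and 3 with 1 sample left out. Against 0 lower genes there was 1, SEMA6D, among mRNAs with FPKM above 1 in at least 3 samples and 1 after median-of-ratios scaling, and 2 after quantile normalization, SEMA6D and EFNA1, but 0 with any sample left out. The median difference of the 49 genes moved from 0.10 to -0.029 and -0.043 under these scalings and lay between 0.049 and 0.14 with 1 sample left out. Of the partner and effector genes, 3 passed after median-of-ratios scaling and 0 with the block, and between 0 and 5 with 1 sample left out. Over all mRNAs, 1001 calls became 401 with the block, between 196 and 397 without Prenatal1, Prenatal2, Prenatal3, Neonatal2 or Neonatal3, and 944 without Neonatal1. The piglets came from different sows, and the deviations of same-numbered samples from their group means had correlations of -0.04, -0.0043 and 0.00047 over mRNAs, so the numbers pair no samples. The share of calls higher in the neonatal group was 78.8%, against 66.0% after median-of-ratios scaling and 57.9% after quantile normalization.

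After median-of-ratios scaling and quantile normalization respectively, signs turned for EFNB2 (-0.078 and -0.14), EPHA7 (-0.065 and -0.043), EPHB4 (-0.029 and -0.069), ROBO2 (-0.0088 and -0.024), SEMA3E (-0.0033 and -0.060), SEMA4A (-0.024 and -0.018), SLIT2 (-0.055 and -0.062) and UNC5C (-0.039 and -0.016), none of them past the threshold. With 1 sample left out, signs turned for 11 genes far from the threshold, over these ranges: EPHA1 -0.10 to 0.041, EPHA3 -0.054 to 0.33, PLXNA2 -0.029 to 0.57, PLXNA3 -0.13 to 0.21, PLXNA4 -0.034 to 0.37, ROBO2 -0.068 to 0.31, SEMA4A -0.33 to 0.47, SEMA4C -0.28 to 0.011, SEMA5B -0.23 to 0.11, SLIT2 -0.025 to 0.25 and UNC5A -0.045 to 0.17. The cause of these changes was not tested.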
